A study of Homo sapiens with 8 samples.

Results

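A set of 10 genes of the core autophagy machinery were followed in HSC39, a line of human gastric signet ring carcinoma cells, after RNA interference against TRIM44. They were taken as the probe sets annotated with a single symbol out of ATG16L1, ATG16L2, ATG5, ATG7, ATG12, ATG3, BECN1, ULK1, SQSTM1 and MAP1LC3B. All 10 genes had exactly 1 such probe set, which gave 10 of the 19158 probe sets, of 18404 genes, with a single symbol. ATG16L1 was measured by probe set 8049271 and ATG12 by probe set 8113651. RNA was hybridised to 8 whole-transcript arrays: 2 of cells given TRIM44-SiRNA(7), 2 of cells given TRIM44-SiRNA(9) and 4 of cells given All stars negative SiRNA, called siRNA 7, siRNA 9 and negative siRNA from here on. The labels give 100 nM (written nm) and 48 h for the TRIM44 reagents, and growth in RPMI with fetal calf serum for all cells. The transfection protocol mentions TRIM44 siRNA alone, even on negative samples, and the design text calls the compared cells untreated. Values are deposited log2 levels, and differences are log2 differences. The genes were chosen with earlier results of these arrays known, ATG16L1 at their head, so their values and differences are a description and carry no test.

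Autophagy encloses cytoplasm in a double membrane, the autophagosome, and delivers it to the lysosome. The ULK1 kinase complex starts the process, and the BECN1-containing lipid kinase complex marks the membrane where it forms. ATG7, an activating enzyme, then drives a pair of ubiquitin-like conjugations: ATG12 is joined to ATG5, which binds ATG16L1, and with this complex and ATG3 the ATG8-family protein LC3B, the product of MAP1LC3B, is attached to lipid. SQSTM1 (p62) is a receptor that carries ubiquitinated cargo to LC3. TRIM44, of the tripartite motif family but without its RING domain, has been reported to remove ubiquitin from SQSTM1. The study compared transcript levels after TRIM44 knockdown with those of control cells. Many steps of autophagy are set by protein modification and turnover, which transcript arrays do not measure.

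TRIM44 was lower with both reagents. Its log2 level was 10.85 and 11.27 on the siRNA 7 arrays and 11.10 and 11.14 on the siRNA 9 arrays, against 11.91, 12.02, 11.91 and 11.77 on the negative arrays. All siRNA arrays thus lay below all negative arrays, and TRIM44 fell to 57.0% of the negative level (log2 difference -0.81, SE 0.10, limma adjusted p = 0.0449; 2-sided exact permutation p = 0.0286, the smallest that 70 assignments allow). Without siRNA 7 array 2 the limma adjusted p was 0.0306, and without any other array it lay between 0.0587 and 0.291. The difference ranged over -0.87 to -0.73 when each array was left out in turn. Both tests counted the 2 arrays of a reagent as separate units. With siRNA identity as a random block, TRIM44 missed the limma threshold. Array medians lay between 6.78 and 6.87. Principal component 1 held 32.5% of the variance. Along it the siRNA 9 arrays stood at 15.50 and 17.16 and negative array 2 at 13.63, while all other arrays lay between -11.78 and -5.57; values without negative array 2 are therefore given below. The 8 epithelial markers had mean log2 levels of 10.37 (CLDN4) to 13.05 (KRT8). Their mean per array was 11.85 to 11.88 with siRNA 7, 11.79 to 11.86 with siRNA 9 and 11.87 to 12.02 with negative siRNA. Of other cell types, the leukocyte marker PTPRC had 4.23, the fibroblast marker DCN 4.38 and the endothelial marker KDR 5.41, each the lowest of its list. The highest of these lists were, in the same order, the lysozyme gene LYZ at 11.53, the proteoglycan gene LUM at 9.77 and CDH5 at 6.92. Of the gastric markers, TFF3 had 10.62 and GKN2 3.91. The arrays give no detection calls, so a low level could not be told from absence. The design text speaks of biological replicates, with nothing on separate cultures, and the p-values cover only array-to-array spread within the groups, possibly technical.

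ATG16L1 scaffolds the complex that sets where LC3 is attached to membrane, and it showed the widest gap of the 10 genes. Its log2 level was 7.81 and 8.03 with siRNA 7, 7.38 and 7.29 with siRNA 9, and 7.71, 7.92, 7.78 and 7.87 with negative siRNA. Both siRNA 9 arrays lay below all other arrays, while the siRNA 7 arrays lay within or above the range of the negative arrays. ATG16L1 averaged 7.33 ± 0.06 on the siRNA 9 arrays (SD, n = 2) and 7.82 ± 0.09 on those of negative siRNA (SD, n = 4), a difference of -0.49 (SE 0.10, 95% interval -0.71 to -0.27) or 71.2% of the negative level. The siRNA 7 mean was 7.92 ± 0.15 (SD, n = 2), a difference of 0.10 from negative siRNA (SE 0.10, interval -0.12 to 0.32). In order of level, siRNA 7 and negative siRNA were neighbours within their spread and siRNA 9 came lowest, with 0.59 between siRNA 7 and siRNA 9 (SE 0.12, interval 0.33 to 0.84). TRIM44 itself stood at 55.8% of the negative level with siRNA 7 and at 58.2% with siRNA 9, a log2 difference between the reagents of -0.06 (95% interval -0.36 to 0.24). The siRNA 9 difference was -0.46 with negative array 2 left out, and leaving out siRNA 9 array 1 or 2 gave -0.53 or -0.45. As the samples are bulk RNA, fewer cells with the transcript and less transcript per cell cannot be told apart.

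**Figure D1:**
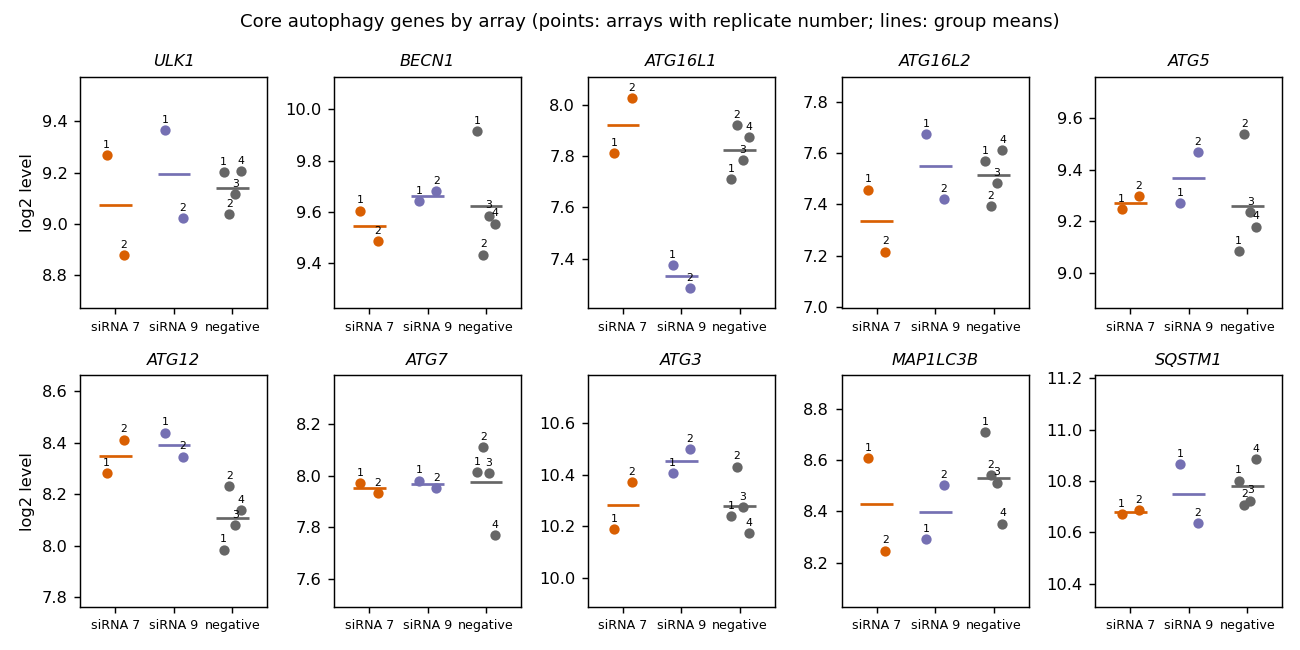
Log2 level (vertical axis) of each of the 10 core autophagy genes on the 8 arrays, by siRNA 7, siRNA 9 and negative siRNA; points are arrays with their replicate number and lines are group means. The siRNA 9 points of ATG16L1, at 7.38 and 7.29, lie below all its other points, and the 4 siRNA points of ATG12 lie above its negative points.

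The other members of the ATG16L1 complex, and its paralog, were not lower with siRNA 9. ATG12, the ubiquitin-like protein that is joined to ATG5, was higher with both reagents, at 8.28 and 8.41 with siRNA 7 and 8.44 and 8.35 with siRNA 9, against 7.98, 8.23, 8.08 and 8.14 with negative siRNA. Each TRIM44 siRNA array was above every negative array, with siRNA 7 array 1 and negative array 2 closest. The differences from negative siRNA were 0.24 with siRNA 7 (SE 0.10) and 0.28 with siRNA 9 (SE 0.10), or 118.0% and 121.8% of the negative level. Without negative array 2 they were 0.28 and 0.33. ATG5, which carries ATG12, had 9.25 and 9.30 with siRNA 7, 9.27 and 9.47 with siRNA 9, and 9.08, 9.54, 9.24 and 9.18 with negative siRNA; the groups overlapped, since negative array 2 was the highest of all. Its siRNA 9 difference was 0.11 with all arrays and 0.20 without negative array 2 (SE 0.12 with all arrays). ATG16L2, the paralog of ATG16L1, had 7.46 and 7.22 with siRNA 7, 7.67 and 7.42 with siRNA 9, and 7.57, 7.39, 7.48 and 7.61 with negative siRNA. It averaged 0.03 above negative siRNA with siRNA 9 (interval -0.21 to 0.28) and -0.18 from it with siRNA 7 (interval -0.42 to 0.07), and all groups overlapped.

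The sequences upstream of the ATG16L1 and ATG12 start sites are shown because ATG16L1 had the widest gap of the members and ATG12 alone lay apart from the negative arrays with both reagents, and that of ATG3 because it holds a motif match. Each is the 250 bases before the start on the coding strand of GRCh38.p14, from RefSeq: chr2:233251423-233251672 on the plus strand for ATG16L1, chr5:115841566-115841815 on the minus strand for ATG12 and chr3:112561963-112562212 on the minus strand for ATG3. Capitals mark a motif match.
ATG16L1: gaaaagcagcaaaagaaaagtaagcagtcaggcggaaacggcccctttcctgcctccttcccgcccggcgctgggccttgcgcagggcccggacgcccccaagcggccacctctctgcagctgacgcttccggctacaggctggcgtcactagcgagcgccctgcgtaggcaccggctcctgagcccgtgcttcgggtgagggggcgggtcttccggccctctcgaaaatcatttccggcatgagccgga
ATG12: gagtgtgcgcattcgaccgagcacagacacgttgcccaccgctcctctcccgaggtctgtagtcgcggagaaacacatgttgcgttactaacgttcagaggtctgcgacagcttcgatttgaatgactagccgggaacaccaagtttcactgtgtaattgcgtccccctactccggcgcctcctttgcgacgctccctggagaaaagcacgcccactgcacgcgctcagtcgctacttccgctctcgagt
ATG3: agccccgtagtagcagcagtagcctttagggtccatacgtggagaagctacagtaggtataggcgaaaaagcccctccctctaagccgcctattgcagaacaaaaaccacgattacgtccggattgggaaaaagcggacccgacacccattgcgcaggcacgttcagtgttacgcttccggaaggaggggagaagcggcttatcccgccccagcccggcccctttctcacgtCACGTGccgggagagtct
The motifs searched on both strands were CACGTG, the core E-box that TFEB-family factors bind, TGACNNNGC, a core of the antioxidant response element, and TGATGNAA, an ATF4 composite element. All 10 members had an entry, with 13 start sites in all. CACGTG occurred once among these 13 windows, 18 bases before the ATG3 start, and in 6.31% of 34796 windows of the same length. TGACNNNGC occurred once, as TGACCAGGC 46 bases before the MAP1LC3B start, and in 10.9% of all windows. TGATGNAA occurred in 0 of the 13 and in 3.16% of all windows. The ATG16L1 and ATG12 windows held none of the 3 motifs, which says only that these letters are not there. Of their bases, 66.4% were G or C upstream of ATG16L1 and 57.6% upstream of ATG12.

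The conjugating enzymes showed small differences. ATG7, the activating enzyme, had 7.97 and 7.93 with siRNA 7, 7.98 and 7.95 with siRNA 9, and 8.02, 8.11, 8.01 and 7.77 with negative siRNA. The siRNA arrays lay inside the negative range, and the differences were -0.02 with siRNA 7 and -0.01 with siRNA 9 (SE 0.10 each). ATG3, which passes LC3 to lipid, had 10.19 and 10.37 with siRNA 7, 10.41 and 10.50 with siRNA 9, and 10.24, 10.43, 10.27 and 10.17 with negative siRNA. Both siRNA 9 arrays were above negative arrays 1, 3 and 4, and negative array 2 lay between them, with a difference of 0.17 (SE 0.10) that was 0.22 without that array. MAP1LC3B had 8.61 and 8.25 with siRNA 7, 8.29 and 8.5 with siRNA 9, and 8.71, 8.54, 8.51 and 8.35 with negative siRNA. The differences of -0.10 and -0.13 (SE 0.13 each) were smaller than the gap of the arrays within each reagent. The siRNA 7 difference was -0.28 without siRNA 7 array 1 and 0.08 without array 2. A brighter probe set annotated to both MAP1LC3B2 and MAP1LC3B was left out of the comparisons. It averaged 10.65 with siRNA 9, 10.97 with siRNA 7 and 11.08 with negative siRNA, and both siRNA 9 arrays were its lowest. The small MAP1LC3B differences thus hold for the single-symbol probe set only.

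The genes that act at either end of the pathway had differences no larger than about their SE. ULK1, the initiating kinase, had 9.27 and 8.88 with siRNA 7, 9.36 and 9.02 with siRNA 9, and 9.20, 9.04, 9.12 and 9.21 with negative siRNA. Its arrays differed more within each reagent than the group means did, and the differences were -0.07 and 0.05 (SE 0.13 each). Without siRNA 7 array 1 the siRNA 7 difference was -0.26, and without array 2 it was 0.13. BECN1, which regulates the lipid kinase, had 9.61 and 9.49 with siRNA 7, 9.64 and 9.68 with siRNA 9, and 9.91, 9.43, 9.59 and 9.55 with negative siRNA, where array 1 alone lay above all siRNA arrays. The differences were -0.08 and 0.04 (SE 0.12 each). SQSTM1, the receptor that TRIM44 has been reported to act on as a protein, had 10.67 and 10.69 with siRNA 7, 10.87 and 10.64 with siRNA 9, and 10.80, 10.71, 10.72 and 10.89 with negative siRNA. Its siRNA 7 arrays lay just below the lowest negative array, and the differences were -0.10 with siRNA 7 (interval -0.32 to 0.11) and -0.03 with siRNA 9 (interval -0.24 to 0.19). Without siRNA 9 array 1 the siRNA 9 difference of SQSTM1 was -0.14, and without array 2 it was 0.09. These intervals do not show that the transcripts were alike; they bound the difference.

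**Figure D2:**
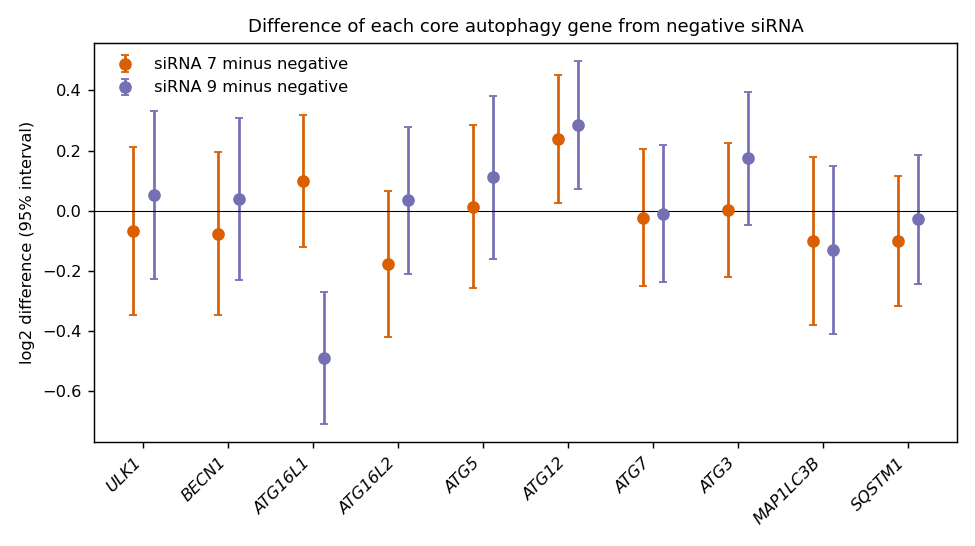
Log2 difference from negative siRNA (vertical axis) of each of the 10 genes with siRNA 7 and with siRNA 9; points are fitted differences and bars their 95% intervals. ATG16L1 with siRNA 9, at -0.49, lies farthest from 0, and ATG12 lies above 0 with both reagents.

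In the limma fit of 3 group means, the threshold of 0.05 on the adjusted p was passed by 1 member with siRNA 9, ATG16L1, where 0.924% of all probe sets passed, and by 0 members with siRNA 7, where 0.0679% passed. Between siRNA 7 and siRNA 9 the adjusted threshold was passed by ATG16L1 alone, where 2.23% of all probe sets passed. At an unadjusted p under 0.05 there was 1 member with siRNA 7, against 7.46% of probe sets, and 2 with siRNA 9, against 13.6%. Between the reagents there was 1, against 15.7%. With both reagents taken as a single condition of 4 arrays, 0 members passed in limma, where 0.00522% of probe sets did, and 1 had an unadjusted p under 0.05, against 5.43% of probe sets. Since ATG16L1 was in the set with these results known, nothing is read from these counts. The siRNA 9 count was 0 without negative array 1, 3 or 4 or either siRNA 9 array, and the count between reagents was 0 without negative array 3, siRNA 7 array 2 or either siRNA 9 array. By direction, the share of all probe sets past the threshold was 0.00522% higher and 0.0626% lower with siRNA 7, 0.334% higher and 0.59% lower with siRNA 9, and 0.82% higher and 1.41% lower for siRNA 7 against siRNA 9.

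Non-overlap of the arrays is also frequent among all probe sets, and nothing is read from the members' counts. With both reagents together it held for ATG12, which lay above; the share of all probe sets was 2.86%, 1.59% above and 1.26% below. With siRNA 7 it held for ATG12 above and SQSTM1 below, beside 14.4% of all probe sets, 6.38% above and 7.99% below. With siRNA 9 it held for ATG12 above and ATG16L1 below, beside 22.7%, 13.4% above and 9.23% below. Between siRNA 7 and siRNA 9 it held for ATG16L1 above and for ATG3 and BECN1 below, beside 48.6%, 19.9% above and 28.7% below. The median difference over the members was -0.05 with siRNA 7 and 0.04 with siRNA 9, beside -0.00 and 0.02 over all probe sets. Of the 10 members, 4 were above 0 with siRNA 7 and 6 with siRNA 9. In each of these comparisons 9 members lay between the 5th and 95th percentile of all probe sets, -0.24 to 0.20 with siRNA 7 and -0.26 to 0.31 with siRNA 9. The exception was ATG12 with siRNA 7 and ATG16L1 with siRNA 9. The comparisons with siRNA 7 and with siRNA 9 share the 4 negative arrays.

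The RNA genes inside the ATG16L1 span had siRNA 9 differences above 0, where ATG16L1 was below 0. In GRCh38.p14 the RefSeq table places 2 small Cajal body RNA genes, SCARNA5 and SCARNA6, which guide modification of spliceosomal RNA, within ATG16L1. SCARNA5 had 7.80 and 7.88 with siRNA 7, 8.66 and 8.35 with siRNA 9, and 7.66, 8.54, 7.71 and 7.45 with negative siRNA. SCARNA6 had 8.45 and 8.51 with siRNA 7, 9.24 and 9.02 with siRNA 9, and 8.29, 9.13, 8.08 and 8.19 with negative siRNA. Both were high on the siRNA 9 arrays and on negative array 2, the arrays that stood together on the first principal component, so the groups overlapped. The siRNA 9 difference was 0.67 for SCARNA5 (SE 0.23, limma adjusted p = 0.217) and 0.71 for SCARNA6 (SE 0.23, limma adjusted p = 0.187), neither past the threshold. With each array left out in turn it ranged over 0.52 to 0.90 for SCARNA5 and 0.59 to 0.94 for SCARNA6. The highest values came without negative array 2, as they must when the single high negative array is left out, and no test is read from them. ATG16L1 on negative array 2, at 7.92, was the highest of the negative arrays and did not share the low level of the siRNA 9 arrays. The nearest protein-coding neighbours were INPP5D, a phosphoinositide phosphatase of blood cells, with a siRNA 9 difference of -0.15 (limma adjusted p = 0.545), and SAG, the retinal arrestin, with 0.22 (limma adjusted p = 0.435). Their group means, 6.07 to 6.23 for INPP5D and 5.40 to 5.70 for SAG, lay below the array medians. Whether these levels are above background is unknown, so little can be read from their differences.

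**Figure D3:**
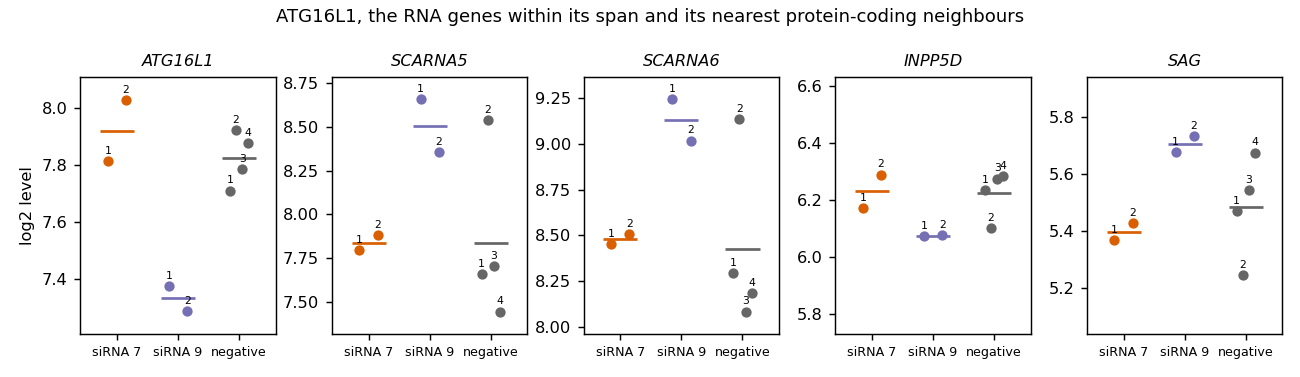
Log2 level (vertical axis) of ATG16L1, of SCARNA5 and SCARNA6 within its span, and of the neighbours INPP5D and SAG on the 8 arrays; points are arrays with their replicate number, lines are group means. Negative array 2 lies with the siRNA 9 arrays for SCARNA5 and SCARNA6 and with the other negative arrays for ATG16L1.

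The genes most like ATG16L1 over the 8 arrays were, through the pick itself, low with siRNA 9 too. By Pearson correlation of log2 levels on the brightest probe set of each gene, these were USP46 (0.993), a deubiquitinase gene, the kinase gene HIPK1 (0.988), PGRMC2 (0.987), which encodes a haem-binding membrane protein, PRKAR2A (0.984), a regulatory subunit of protein kinase A, and UBE2N (0.980), the ubiquitin-conjugating enzyme gene of K63 chains. Their means were lower with siRNA 9 than with negative siRNA by differences of -0.51 for USP46, -0.48 for HIPK1, -0.17 for PGRMC2, -0.52 for PRKAR2A and -1.0 for UBE2N. With siRNA 7 the differences from negative siRNA lay between 0.05 for PGRMC2 and 0.15 for UBE2N. USP46 had 8.37 and 8.58 with siRNA 7, 7.88 and 7.86 with siRNA 9, and 8.30, 8.46, 8.38 and 8.39 with negative siRNA. The most opposite were EIF3J-DT (-0.991), GARNL3 (-0.980), ZNF345 (-0.964), CSTL1 (-0.962) and C1orf210 (-0.960). These were picked from all genes for their likeness, over 8 arrays that share 3 groups. Their siRNA 9 differences follow from that pick and are no separate finding. Among the members the correlation with ATG16L1 ran from -0.48 for ATG3 and BECN1 to -0.04 for SQSTM1, ATG7 and MAP1LC3B, and none was above 0.

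Beyond the 10 members, 122 genes of the pathway were listed in 10 groups, of which 117 were measured. With siRNA 9, 1 of these 117 passed the threshold, or 0.855% beside 0.924% of all probe sets. It was ATG4D, a cysteine protease that processes ATG8-family proteins, with 9.53 and 9.30 with siRNA 9, against 9.94, 9.81, 10.03 and 10.16 with negative siRNA. ATG4D fell by 0.57 on the log2 scale with siRNA 9 (SE 0.11, limma adjusted p = 0.0431), and both siRNA 9 arrays lay below all negative arrays. The call ended without negative array 1 (limma adjusted p = 0.0999), 3 (0.139) or 4 (0.0688). Without negative array 2 the limma adjusted p was 0.00733. That array is the lowest negative one for ATG4D, so the gap must widen without it, and nothing is read from this value. Over 16 alternatives the difference lay between -0.69 and -0.45, and the call held in 6 of them. The count of the 117 was 14 without negative array 2, 10 higher and 4 lower, or 12% beside 5.57% of all probe sets in the same setting. It was 1 without negative array 4, and 0 without any other array. With siRNA 7, and with both reagents as a single condition, limma called 0 of the 117, and 8 had an unadjusted p under 0.05 in each, or 6.84% beside 7.46% of all probe sets with siRNA 7 and 5.43% with both. With siRNA 9 it was 22 of the 117, or 18.8% beside 13.6%. Among probe sets above the median level, the unadjusted share with siRNA 9 was 22.7% of the listed genes beside 21.7% of all. The lists were drawn up with earlier results of these arrays known, so these shares are a description.

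By group, median differences lay between -0.15 and 0.06 with siRNA 7 and between -0.06 and 0.09 with siRNA 9. The 5 measured initiation genes, ULK1 partners and the related ULK2 and ULK3, had medians of 0.06 with siRNA 7 and 0.03 with siRNA 9. RB1CC1, or FIP200, the scaffold that also binds ATG16L1, had 0.41 with siRNA 9 (limma adjusted p = 0.137). Of its partners in the ULK1 complex, ATG13 had -0.19 with siRNA 9 and ATG101 0.15 with siRNA 7, and the related kinase gene ULK3 had 0.06 with siRNA 7, none past the threshold. The 15 genes of kinases upstream of ULK1, their subunits and their regulators had medians of -0.05 and -0.06. Here PRKAG1, a regulatory subunit of AMP-activated protein kinase (AMPK), had -0.45 with siRNA 9 (limma adjusted p = 0.0574), while PRKAA2, a catalytic subunit of the same kinase, had 0.31 (limma adjusted p = 0.218) and its paralog PRKAA1 -0.13 (limma adjusted p = 0.665). The 10 genes of the lipid kinase complex and its regulators had 0.03 and 0.09. ATG14, the subunit that directs the complex to autophagy, had 0.40 with siRNA 9 (limma adjusted p = 0.105). BCL2, which binds BECN1, had 0.26 with siRNA 9 (limma adjusted p = 0.217), and PIK3C3, the catalytic subunit, had 0.15 with siRNA 7 (limma adjusted p = 0.876). The 11 conjugation and ATG8-family genes had 0.01 and 0.05. ATG10, which passes ATG12 to ATG5, had -0.33 with siRNA 7 (limma adjusted p = 0.570), and GABARAPL2 had 0.21 with siRNA 9 (limma adjusted p = 0.372).

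The 12 genes of membrane supply had medians of -0.03 with siRNA 7 and 0.03 with siRNA 9; WDR45B, a phosphoinositide-binding protein, had 0.50 with siRNA 9 (limma adjusted p = 0.0711), ATG2A, a lipid transfer protein, had -0.29 (limma adjusted p = 0.212) and VMP1 had -0.16 with siRNA 7 (limma adjusted p = 0.798). The 16 receptor genes had medians of -0.15 with siRNA 7, with 12 below 0, and 0.06 with siRNA 9, with 7 below 0, beside -0.00 and 0.02 over all probe sets. FUNDC1, a mitophagy receptor, had 7.64 and 7.71 with siRNA 7, against 8.08, 8.29, 8.11 and 8.33 with negative siRNA, a difference of -0.53 (SE 0.10, limma adjusted p = 0.0856) that did not pass. BCL2L13, also a mitochondrial receptor, had -0.37 with siRNA 9 (limma adjusted p = 0.189), and ATL3, a receptor for endoplasmic reticulum, had -0.25 with siRNA 7 (limma adjusted p = 0.570) on its brighter probe set. SEC62, also a receptor for endoplasmic reticulum, had 0.29 with siRNA 9 (limma adjusted p = 0.300). Among the 12 fusion genes, with medians of -0.04 and 0.07, VPS33A of the tethering complex had -0.42 with siRNA 9 (limma adjusted p = 0.0547) and the autophagosomal SNARE gene STX17 had -0.22 with siRNA 7 (limma adjusted p = 0.614). The tether gene EPG5, listed in this group and in membrane supply, had 0.29 with siRNA 9 (limma adjusted p = 0.407), and the adaptor gene PLEKHM1 had 0.18 with siRNA 7 (limma adjusted p = 0.80). The 18 lysosomal genes had medians of -0.05 with each reagent. MITF, a transcription factor of the TFEB family, had -0.50 with siRNA 7 (limma adjusted p = 0.155) and -0.28 with siRNA 9 (limma adjusted p = 0.291). Among the 14 SQSTM1 partners and NRF2-arm genes, with medians of 0.00 and 0.06, the NRF2 target NQO1 had -0.07 with siRNA 7 (limma adjusted p = 0.969) and -0.29 with siRNA 9 (limma adjusted p = 0.138). The kinase gene TBK1, which phosphorylates receptors, had 0.21 with siRNA 7 (limma adjusted p = 0.771) and 0.29 with siRNA 9 (limma adjusted p = 0.284). The kinase genes MAP2K5 and PRKCZ, whose products bind SQSTM1, had -0.39 with siRNA 9 (limma adjusted p = 0.129) and -0.21 with siRNA 7 (limma adjusted p = 0.704). The 6 genes of ATG16L1 partners outside canonical autophagy had medians of -0.02 and 0.04. Among them NOD2, a sensor of bacterial cell wall, had 0.46 with siRNA 9 (limma adjusted p = 0.0521), the small GTPase gene RAB33B had 0.19 (limma adjusted p = 0.466) and TMEM59 had -0.15 with siRNA 7 (limma adjusted p = 0.840).

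**Figure D4:**
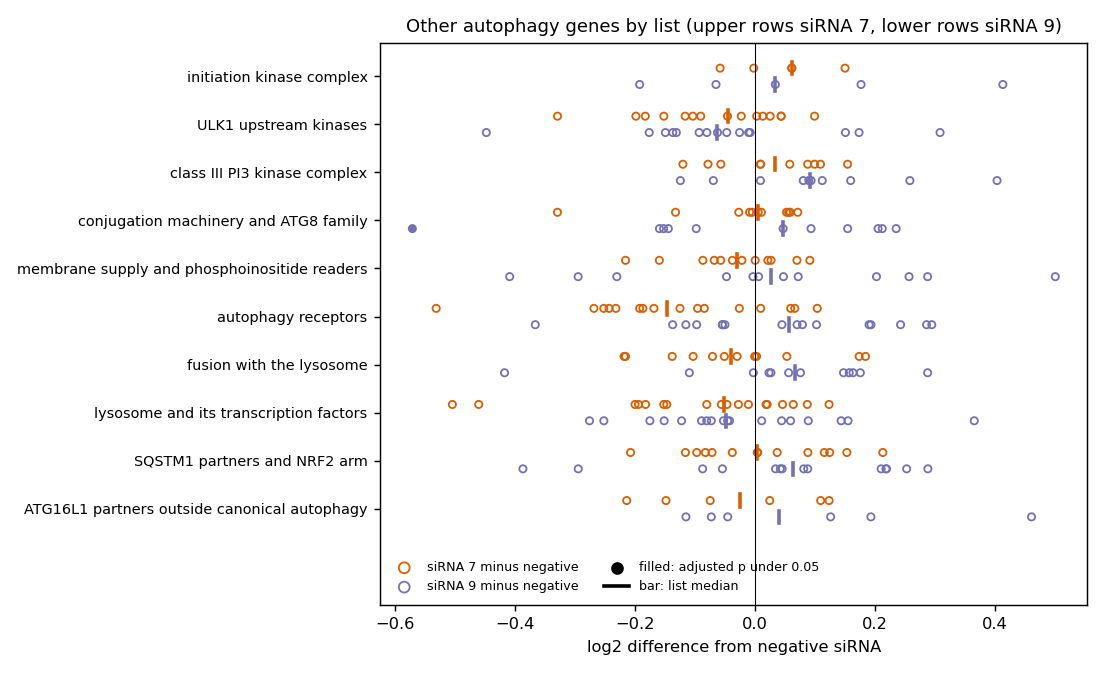
Log2 difference from negative siRNA (horizontal axis) of each measured gene of the 10 groups, with siRNA 7 in the upper and siRNA 9 in the lower row of each; filled points passed the threshold and bars are medians. ATG4D with siRNA 9, at -0.57, is the filled point.

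Between siRNA 7 and siRNA 9, 7 of the 117 passed, 1 higher with siRNA 7 and 6 lower. That was 5.98% beside 2.23% of all probe sets. Among probe sets above the median level it was 7.22% of the listed genes beside 7.34% of all. Because earlier results were known when the genes were listed, nothing is read from these shares. ATG4D was higher with siRNA 7 than with siRNA 9 by 0.63 (SE 0.13, limma adjusted p = 0.0340), as ATG16L1 was. The 6 that were lower with siRNA 7 came from 5 of the groups. FUNDC1 had 7.64 and 7.71 with siRNA 7, against 8.29 and 8.32 with siRNA 9 (difference -0.63, limma adjusted p = 0.0200). ATP6V1A, the catalytic subunit of the lysosomal proton pump, had 9.14 and 9.31 with siRNA 7, against 9.83 and 9.83 with siRNA 9 (difference -0.60, limma adjusted p = 0.0179). For these genes the siRNA 7 arrays lay below all negative arrays.

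PRKAA2 had 9.82 and 9.85 with siRNA 7, against 10.45 and 10.51 with siRNA 9 (difference -0.64, limma adjusted p = 0.0262), with the negative arrays between at 10.03 to 10.38. NPC1, the lysosomal cholesterol exporter, had 9.08 and 8.97 with siRNA 7, against 9.63 and 9.53 with siRNA 9 (difference -0.56, limma adjusted p = 0.0373). WDR45B had 10.72 and 10.73 with siRNA 7, against 11.40 and 11.23 with siRNA 9 (difference -0.59, limma adjusted p = 0.0454). NOD2, which binds ATG16L1, had 6.35 and 6.24 with siRNA 7, against 6.82 and 6.83 with siRNA 9 (difference -0.54, limma adjusted p = 0.0334), and nothing in the files shows whether this level is above background. For NPC1, WDR45B and NOD2 both siRNA 9 arrays exceeded every negative array. The count of 7 became 4, 12, 2 and 8 when negative array 1, 2, 3 or 4, in that order, was left out. These were 3.42%, 10.3%, 1.71% and 6.84% of the listed genes, beside 1.75%, 5.48%, 1.14% and 2.59% of all probe sets. Leaving out a siRNA array leaves a lone array of that reagent, assumed to vary like the others, so no count is given. The counts above therefore do not show how far the 7 calls rest on single siRNA arrays.

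**Figure D5:**
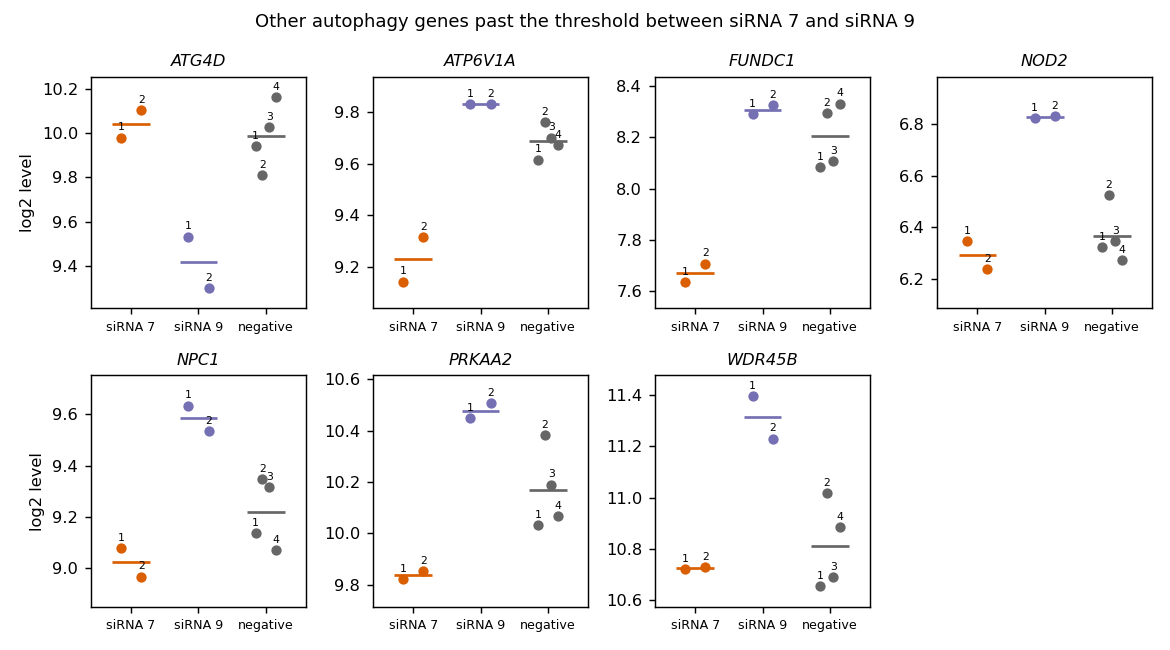
Log2 level (vertical axis) of the 7 other autophagy genes past the threshold between siRNA 7 and siRNA 9 on the 8 arrays; points are arrays with their replicate number, lines are group means. ATG4D is lower on the siRNA 9 arrays than on the siRNA 7 arrays, and the other 6 are higher there.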

How the data were processed

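Expression was measured on 8 arrays of HSC39 cells. The authors deposited log2 levels of 32321 probe sets for each array. The submitters' processing notes name limma. After sorting, the arrays' values came within 0.18 of each other at every rank. The normalization method, background correction, filters and genome build were not given in the sources used here. The signal over background is unknown. The number of arrays limits precision.

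Symbols came from the platform annotation, checked through gene IDs against RefSeq (GRCh38.p14) (19128 found, 0 changed). The 19158 probe sets with 1 symbol were tested; 1388 with several and 11775 with none were left out. Where a gene had several probe sets, the one of highest mean stood for it. Limma fits used 3 group means for each reagent and for siRNA 7 minus siRNA 9, and 2 groups for both reagents together; moderated 2-sided p-values were Benjamini-Hochberg adjusted over all tested probe sets at 0.05. Members and gene lists were chosen with earlier results of these data known. The text names every member, TRIM44, list genes past the threshold, the 2 genes per list of smallest unadjusted p for each reagent, the 5 genes most like and most unlike ATG16L1, and its neighbours. The fits were tested on simulated data. Alternatives were quantile normalization, median centring, other sets of probe sets, a trended prior, array weights, a replicate block, other groupings, and leaving out each array. Software was limma 3.58.1 with statmod 1.5.0 in R 4.3.3, and matplotlib 3.10.9 for plots.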

Additional observations from a re-analysis of the deposited data

Results flagged for a closer look

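Between the reagents, the siRNA 7 minus siRNA 9 difference was 0.59 for ATG16L1, a value that is a description because the gene was chosen with it known. Of the other autophagy genes, whose lists were also drawn up with earlier results known, 7 passed the threshold in the limma fit over all probe sets. Their differences were 0.63 for ATG4D, -0.60 for ATP6V1A, -0.63 for FUNDC1, -0.54 for NOD2, -0.56 for NPC1, -0.64 for PRKAA2 and -0.59 for WDR45B. Single arrays stood far from the others of their condition for 3 genes, with both reagents taken as a single condition. Chance gives about 1 such case in 20 groups of 4 arrays. The number of groups screened is not given, so nothing is read from these 3 cases. ATL3 stood at 7.00 on negative array 1, against 6.86 to 6.88 on the other negative arrays. BCL2L13 stood at 8.57 on negative array 4, against 8.84 to 8.87 on the other negative arrays. TBK1 stood at 8.93 on siRNA 7 array 1, against 9.08 to 9.10 on the other TRIM44 siRNA arrays.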

How the results depend on the processing

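The ATG16L1 difference with siRNA 9 lay between -0.53 and -0.45 over 16 alternatives and passed the threshold in 9 of them. ATG16L1 was chosen with its result on these arrays known, so this tally is a description and no test. With each array left out in turn, the ATG16L1 difference was 0.48 to 0.70 between siRNA 7 and siRNA 9. It was -0.0097 to 0.20 with siRNA 7 and -0.33 to -0.084 with both reagents together. TRIM44 kept its direction, at -0.87 to -0.73 with an array left out, and missed the threshold with median centring (-0.81, limma adjusted p = 0.108), all probe sets tested (-0.81, 0.442), the replicate block (-0.88, 0.998) and siRNA identity as a random block (-0.81, 0.108).

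Of all probe sets, limma called 1 with both reagents together, against 0 with median centring, 2 in the brighter part of the probe sets (above the median level), 0 with all probe sets, 2 with a trended prior, 33 with array weights, 4 with 3 group means, 0 with the random block and 0 to 2 with an array left out. At an unadjusted p under 0.05, median centring gave 1054, all probe sets 1467 and the random block 757. With siRNA 7 it called 13, against 1, 64, 0 (1826 unadjusted), 83 and 70 for the first 5 of these settings, 1 with only the arrays compared and 1 to 35 with an array left out. With siRNA 9 it called 177, 64 higher and 113 lower, against 390 in the brighter part, 28 with all probe sets, 405 with a trended prior, 2082 with array weights and 0 to 1067 with an array left out, the 1067 being without negative array 2 (709 higher, 358 lower). Between the reagents it called 428, 157 higher and 271 lower, against 703, 8, 792 and 1063 for the same 4 settings, 807 with only the arrays compared and 0 to 1050 with an array left out; median centring split its calls 181 to 170. Where leaving out an array gave 0, the unadjusted count was at least 592.

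Of the other autophagy genes, 0 passed with siRNA 7. The count was 2 in the brighter part, 2 with a trended prior and 1 with array weights. These were 2.06%, 1.71% and 0.855% of the listed genes tested, beside 0.668%, 0.433% and 0.365% of all probe sets tested. With siRNA 9, 1 passed. The count was 4 with quantile normalization (3.42% beside 1.18% of all probe sets) and 5 in the brighter part (5.15% beside 4.07%). A trended prior gave 6 (5.13% beside 2.11%) and array weights 18 (15.4% beside 10.9%). It was 0 with all probe sets (21 unadjusted, 17.9% beside 11.4%) and with only the arrays compared (23 unadjusted, 19.7% beside 13.4%). Leaving out a negative array gave 0 to 14 (12% beside 5.57% for the 14). Between the reagents 7 passed. The count was 4 with median centring (3.42% beside 1.83% of all probe sets) and 12 with only the arrays compared (10.3% beside 4.21%). With all probe sets it was 0 (27 unadjusted, 23.1% beside 13.1%). Leaving out a negative array gave 2 to 12 (10.3% beside 5.48% for the 12), which does not show how the calls rest on single siRNA arrays. The lists were drawn up with earlier results known, so nothing is read from these shares. The genes past the threshold kept their direction in every alternative.

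With the replicate number as a block, the calls were 0 with both reagents (733 unadjusted), 0 with siRNA 7 (1665 unadjusted), 44 with siRNA 9, and 0 other autophagy genes with siRNA 9 (17 unadjusted). The block also ended the ATG16L1 call with siRNA 9, at a difference of -0.48, and kept that between the reagents. Neither is a test, since ATG16L1 was chosen with its results known. Deviations of same-numbered arrays correlated at 0.268 and 0.306 between siRNA 7 and negative siRNA, 0.0583 and 0.131 between siRNA 9 and negative siRNA, and 0.0244 between the reagents. Not all were over 0.1 and the labels do not say what a number marks, so the numbers were not taken as pairs; shared handling by number was not excluded. Array 1 lay above array 2 in all 3 groups for 25.5% of probe sets, ATG16L2 and ULK1 among them, and below it for 12.1%, ATG5 and ATG3 among them. The cause of these changes was not tested. With 2 arrays per reagent and no detection calls, precision and signal over background are limited.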

Other observations

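A further probe set, annotated to both MAP1LC3B2 and MAP1LC3B, was left out of all comparisons because no single gene can be named for it. Its log2 level was 10.99 and 10.95 with siRNA 7, 10.65 and 10.66 with siRNA 9, and 11.17, 11.03, 11.19 and 10.92 with negative siRNA. The siRNA 9 arrays were the lowest of the 8, whereas on the probe set of MAP1LC3B alone they lay within the range of the other arrays.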
